A study of Homo sapiens with 3 samples.

Results

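The MYC and MAX network was followed here as 10 genes: the activators MYC, MYCN and MYCL, their obligate partner MAX, the antagonists MXD1, MXD3, MXD4, MXI1 and MNT, and the MAX-like protein MLX. The genes were chosen by name, out of 20033 protein-coding genes, and every peak from 5 kb upstream of the annotated gene to its end was taken (GENCODE 44, GRCh38). This gave 33 of the 23393 CHD8 peaks and 23 of the 14735 TRRAP peaks. The peaks come from ChIP-seq of wild-type neural stem cells derived from the established human embryonic stem cell line H9, with 1 library for an antibody against the chromatin remodeler CHD8 and 1 for an antibody against TRRAP. Cells were fixed with 2 mM disuccinimidyl glutarate and then 1% formaldehyde, which also captures proteins held to DNA through other proteins. The CHD8 list is named for a stricter false discovery rate (0.0001) than the TRRAP list (0.001), and the read totals are unknown, so counts are not compared between the lists. The IgG control library was not analysed here. With no replicates, no test between the antibodies or between genes was possible, and all values describe these libraries.

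MYC proteins dimerise with MAX, bind E-boxes and activate genes of growth and division, partly by recruiting TRRAP, the scaffold of histone acetyltransferase complexes. MXD proteins, MXI1 and MNT compete for MAX and bring SIN3 and histone deacetylases to the same sites, and MLX forms a parallel set of dimers with some of the antagonists and with glucose-sensing partners. MYCN is the family member best known from neural progenitors and from neuroblastoma. The comparison made here is of the CHD8 and TRRAP peaks at the genes of the network itself, by role.

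All 10 genes had a CHD8 peak within 1 kb of the canonical start site (10 of 10, Wilson 95% interval 72.2 to 100%), beside 55.9% of all protein-coding genes. A TRRAP promoter peak was present at 6 of 10 (31.3 to 83.2%), beside 34.9% of all genes: MYCN, MYCL, MAX, MXD1, MXD3 and MNT. All 6 also had CHD8, so 6 of 10 carried both, beside 34.0%. Among all genes with a CHD8 promoter peak 60.7% had TRRAP too, so 6 of 10 is close to that share. The genes were chosen by name and are not a random sample. The intervals therefore show only how small the counts are, and are no test against the share of all genes. MYC, MXD4 and MLX had no TRRAP peak anywhere in their regions, and MXI1 had TRRAP peaks only away from its canonical promoter. The map of peaks along the genes shows these differences.

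**Figure D1:**
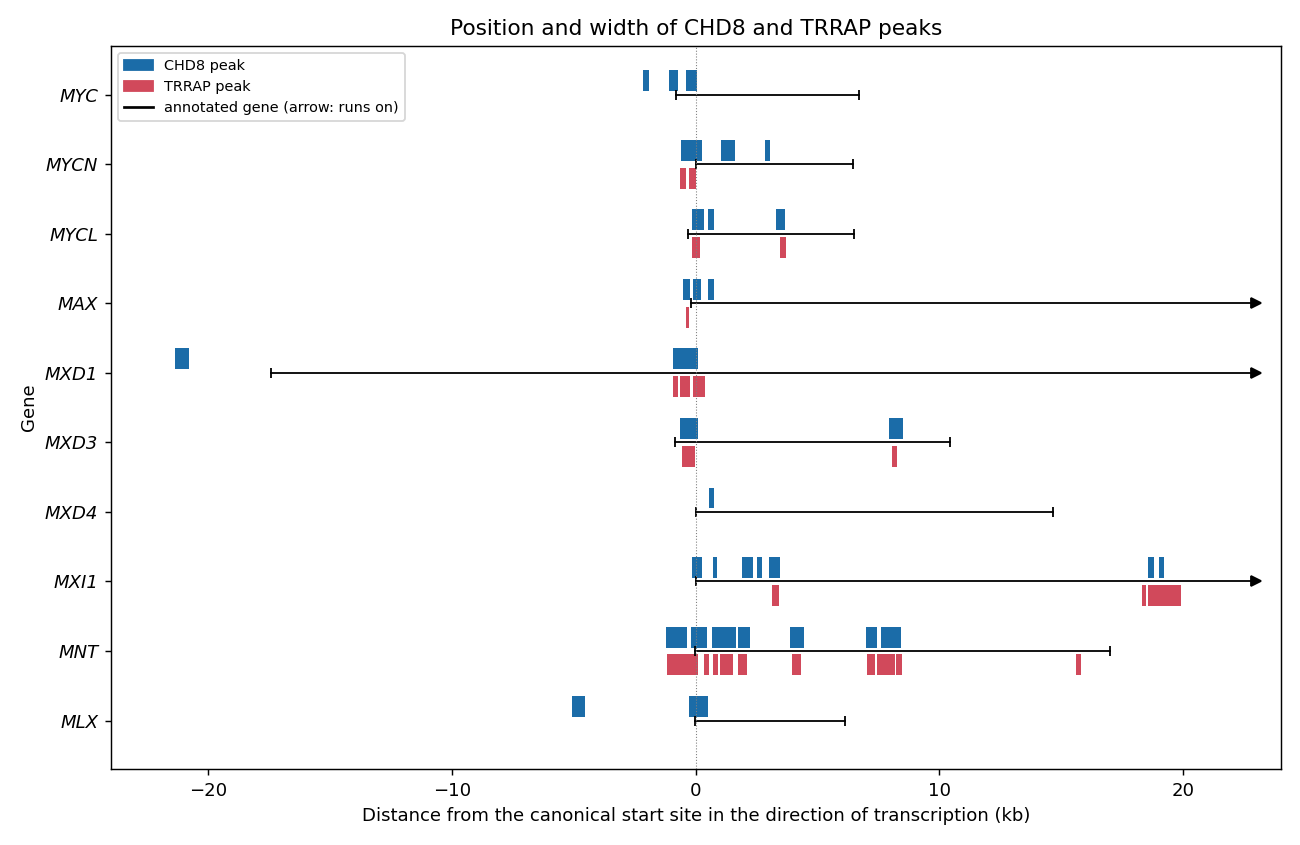
Position and width of every CHD8 peak (blue, above the line) and TRRAP peak (red, below it) over the 10 genes, against distance in kb from the canonical start site, with black lines for the annotated genes. CHD8 lies within 1 kb of the start of every gene, whereas MYC, MXD4 and MLX have no red box and MNT has 10.

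Peaks inside the gene but away from the canonical promoter were found for CHD8 at 5 genes (MYCN, MYCL, MXD3, MXI1 and MNT), beside 18.3% of all genes. TRRAP had such peaks at 4 (MYCL, MXD3, MXI1 and MNT), beside 11.6%. The MXD3 ones lie at the starts of its neighbours RAB24 and PRELID1. Of the 23 TRRAP peaks, 21 shared at least 1 bp with a CHD8 peak (91.3%, 73.2 to 97.6), beside 86.8% of the whole TRRAP list. Of the 33 CHD8 peaks, 17 overlapped TRRAP (51.5%, 35.2 to 67.5), beside 48.6%. Both shares are near those of the lists. The intervals treat peaks as independent, although many lie at the same gene, as do the 10 TRRAP peaks of MNT. The nearest CHD8 summit lay a median of 97 bp from the TRRAP summit in the 21 pairs (3 to 583 bp), and 79 bp in the 12788 pairs of the whole list. The summits of all these peaks lay in sequence whose 32-base words had a median of 1 copy in the reference genome.

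The E-box searched for was CACGTG, which reads the same on both strands. It occurred within 1 kb of the canonical start of 6 genes, beside 29.2% of all protein-coding promoters (32.4% of those with a CHD8 peak). None of the 3 activators had it, 4 of the 5 antagonists did (all but MXI1), and so did MAX and MLX. Of the 9 E-boxes within 1 kb, 7 lay inside a CHD8 peak and 5 inside a TRRAP peak. The same count was not made for the E-boxes of all promoters, so these 2 numbers have no background share. An E-box lay within 100 bp of the summit in 5 of the 17 CHD8 promoter peaks, beside 6.26% of all CHD8 promoter peaks, and in 5 of 12 TRRAP promoter peaks, beside 8.61%. Several of these peaks belong to the same gene, and the match of a word is no evidence that a factor is bound. The plot of summits and words within 1 kb of the start sites shows where they meet.

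**Figure D2:**
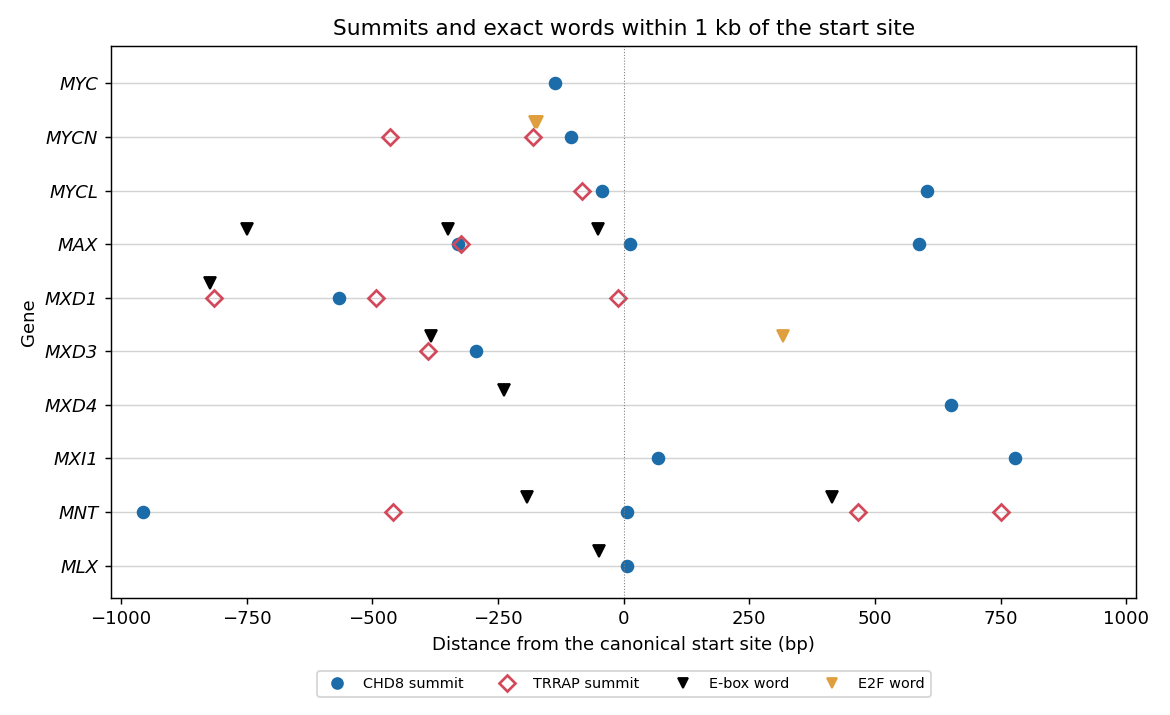
CHD8 summits (filled circles), TRRAP summits (open diamonds), E-boxes (black triangles) and E2F words (orange triangles) within 1 kb of each canonical start site, in bp in the direction of transcription. A black triangle lies within 26 bp of a TRRAP diamond at MAX, MXD1 and MXD3, and orange triangles lie within 8 bp of one at MYCN. The rows of MYC, MYCL and MXI1 hold no triangle.

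The sequences below show a word near a summit at 6 of the genes, and not every such place. Each is 101 bases of the GRCh38 reference, written 5′ to 3′ in the direction of the gene, with the word in capitals. Those of MAX, MXD3, MXD1 and MYCN are centred on a TRRAP summit, that of MNT on a CHD8 summit, and that of MLX ends at the last base before the first annotated start, short of its CHD8 summit.
MAX, chr14:65102790-65102890, minus strand: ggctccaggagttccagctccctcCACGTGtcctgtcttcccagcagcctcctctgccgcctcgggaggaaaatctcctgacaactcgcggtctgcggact
MXD3, chr5:177312238-177312338, minus strand: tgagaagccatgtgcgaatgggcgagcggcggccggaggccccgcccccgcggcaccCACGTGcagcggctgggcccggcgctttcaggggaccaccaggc
MXD1, chr2:69914244-69914344, plus strand: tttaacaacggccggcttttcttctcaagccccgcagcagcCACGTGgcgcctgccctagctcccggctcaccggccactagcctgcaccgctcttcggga
MNT, chr17:2399676-2399776, minus strand: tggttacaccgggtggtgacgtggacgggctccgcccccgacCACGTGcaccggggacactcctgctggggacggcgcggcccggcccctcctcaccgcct
MLX, chr17:42566971-42567071, plus strand: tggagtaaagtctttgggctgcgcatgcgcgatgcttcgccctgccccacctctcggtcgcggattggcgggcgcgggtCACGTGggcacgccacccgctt
MYCN, chr2:15940320-15940420, plus strand: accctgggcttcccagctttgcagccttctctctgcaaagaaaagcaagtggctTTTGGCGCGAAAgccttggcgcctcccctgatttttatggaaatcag

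The first base of the MAX E-box shown, 1 of 3 within 1 kb, is 349 bp upstream of the start. It is 26 bp from the TRRAP summit and 20 bp from the CHD8 summit. In MXD3 the E-box starts 383 bp upstream and 7 bp from the TRRAP summit. In MXD1 it starts 824 bp upstream, 9 bp from the summit of the weakest of 3 TRRAP peaks. The MNT E-box shown is in intron 1, 8 bp from a CHD8 summit and 17 bp from a TRRAP summit. It lies more than 1 kb past the start, so it is not among the 9 counted above, which include 2 others at MNT. The MLX E-box begins 50 bp upstream of the canonical start and 56 bp from the CHD8 summit, with no TRRAP peak. At MYCN the capitals are a pair of overlapping E2F words, TTTGGCGC and the reverse complement of TTTCGCGC, with first bases 176 and 172 bp upstream of the start and 4 and 8 bp from a TRRAP summit. An E2F word (TTTCGCGC or TTTGGCGC on either strand) occurs within 1 kb of 4.94% of all promoters, and otherwise only at MXD3 among the 10, outside its peaks.

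Folds below are the authors' values, the linear ratio of signal at the summit over the peak caller's background. Ranks are within a list by q-value, then fold and width, as a percent of the list, the strongest peak coming first. In each list all folds fell on a grid to within 0.05 of a step, with steps of 0.442 (CHD8) and 0.478 (TRRAP), so values closer than a few steps are not far apart. The median fold was 9.31 over all CHD8 peaks and 8.17 over all TRRAP peaks, and per gene the strongest promoter peak had a median of 12.0 and 8.65. Over the 10 genes, the strongest CHD8 promoter peak had a median fold of 12.0 (9.31 to 24.3), equal to that of all genes.

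By role, the CHD8 promoter folds overlapped. The activators had 11.1 (MYC), 13.3 (MYCN) and 12.4 (MYCL), MAX had 9.31 and MLX had 14.2. The antagonists had 12.8 (MXD1), 11.1 (MXD3), 9.31 (MXD4), 11.5 (MXI1) and 24.3 (MNT). TRRAP promoter peaks were absent at MYC among the activators and at MXD4 and MXI1 among the antagonists, so the presence of a peak did not separate the roles. Among the genes that had one, the strongest folds did not overlap: 7.69 at MYCN and 6.73 at MYCL against 12.0 at MXD1, 9.60 at MXD3 and 20.1 at MNT, with MAX at 9.12. The gap between MYCN and MXD3 is 4 steps of the TRRAP grid. None of the 4 TRRAP peaks at activators ranked in the stronger 50% of the list (59.0 to 75.8%), while 12 of the 18 at antagonists did. The 18 include 1 at the starts of RAB24 and PRELID1 (rank 52.6%), which is not among the 12. Of those 12, 6 were at MNT, 3 at MXI1, 2 at MXD1 and 1 at MXD3. With 2 activators and 3 antagonists measured once, this order has no replicate check.

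Over whole regions, 11 of the 19 CHD8 peaks at antagonists and 5 of the 9 at activators were in the stronger 50% of the list. The 11 include 2 at starts of other genes, SNRNP27 (rank 8.93%) and RAB24 with PRELID1 (rank 18.0%). All regions together held 18 of 33 CHD8 and 13 of 23 TRRAP peaks above the median rank, with 2 of each list in its top 10%. The 18 include 3 at starts of other genes, and the peak at SNRNP27 is 1 of the 2 CHD8 peaks in the top 10%. The median width of all peaks in the regions was 454 bp for CHD8 and 296 bp for TRRAP. It was 376 and 229 bp in the whole lists, which also hold peaks away from promoters. For the strongest promoter peak per gene, the median CHD8 width was 577.5 bp, below the 638 bp of all genes. The median TRRAP width was 389 bp, above the 269 bp of all genes.

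**Figure D3:**
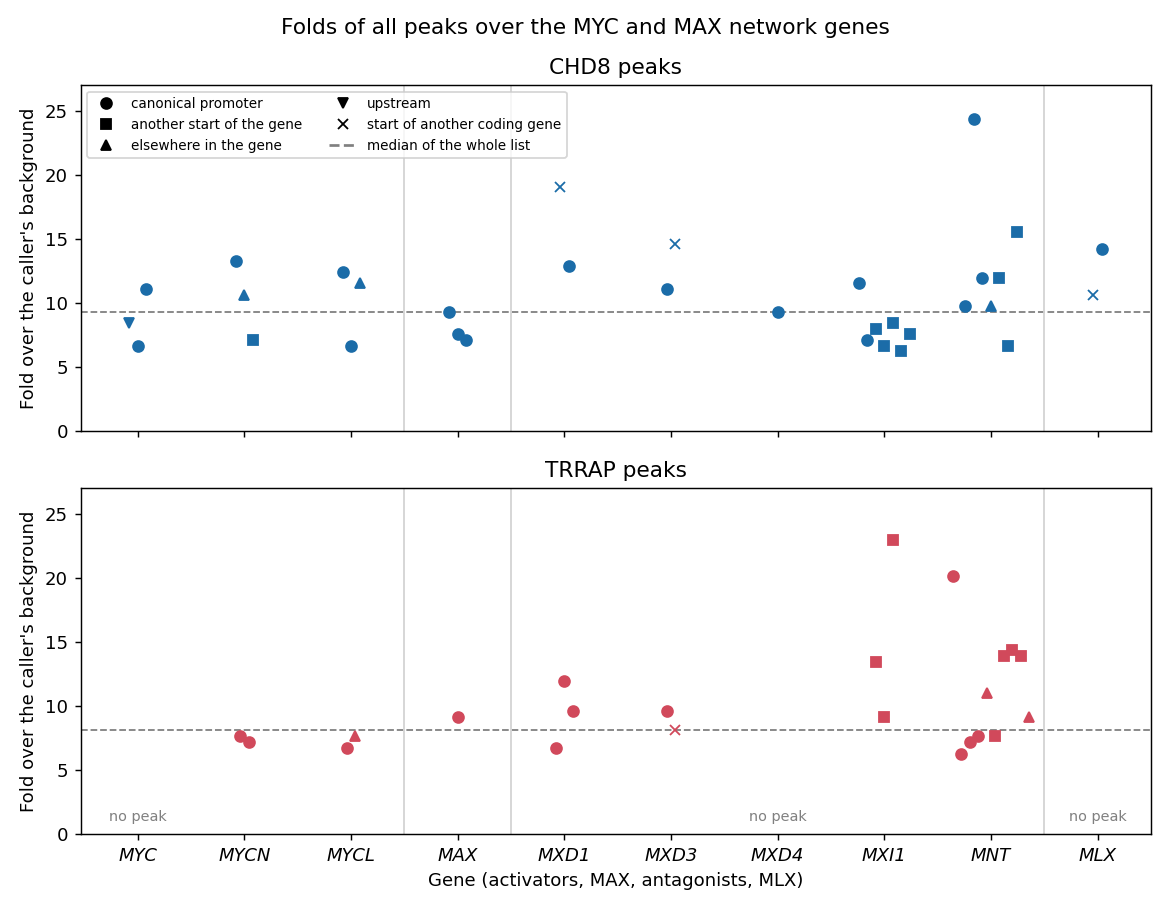
Fold over the caller's background for every CHD8 peak (top) and TRRAP peak (bottom) by gene, with symbols for the peak's position and a dashed line at the median of the whole list. The 4 TRRAP points of MYCN and MYCL lie below the dashed line at 8.17, and the highest points are at MNT (24.3 for CHD8) and MXI1 (23.0 for TRRAP).

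Of the activators, MYC, the broadly expressed founder of the family, had 3 CHD8 peaks in 12.5 kb. The strongest lay on chromosome 8 at 127735822 to 127736271 (450 bp, fold 11.1, rank 35.3%) with its summit 136 bp upstream of the canonical start and 11 bp past another annotated MYC start. It covered 4 of the 14 annotated starts of the gene. A weaker peak was centred 1022 bp upstream (378 bp, fold 6.66, rank 84.3%), and another 2045 bp upstream (222 bp, fold 8.43, rank 61.7%), 219 bp from a start of CASC11, a noncoding RNA transcribed the other way. No TRRAP peak lay in the region. The CpG ratio of the promoter (observed over expected, 500 bp on each side) was 0.776, percentile 61.1 of all promoters.

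In the 1 Mb centred on the MYC start, which holds 2 coding starts, there were 10 CHD8 and 4 TRRAP peaks. The same window around all genes had medians of 12 and 7 peaks and of 13 coding starts. None of the peaks in the MYC window lay more than 5 kb upstream of MYC. Besides the 3 at MYC, the other 7 CHD8 peaks and all 4 TRRAP peaks lay downstream, at or inside PVT1, a long noncoding RNA gene often gained together with MYC in tumours. All 4 TRRAP peaks overlapped CHD8, with summits 5 to 98 bp apart. At the PVT1 start, 58.3 kb from MYC, the CHD8 and TRRAP summits each lay 1 bp from an annotated PVT1 start and 5 bp from each other, with folds of 7.98 and 6.26. Further shared sites were at 74.2 kb (CHD8 7.54, TRRAP 6.26), 307 kb (7.10 and 6.73) and 373 kb (8.43 and 10.1). The last was the only TRRAP peak of the window in the stronger 50% of its list (rank 32.6%). CHD8 alone was present at 131, 171 and 414 kb (folds 7.54, 6.66 and 7.10), the last 37 bp from the start of MIR1208, a microRNA gene within PVT1. None of these 14 peaks held an E-box.

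**Figure D4:**
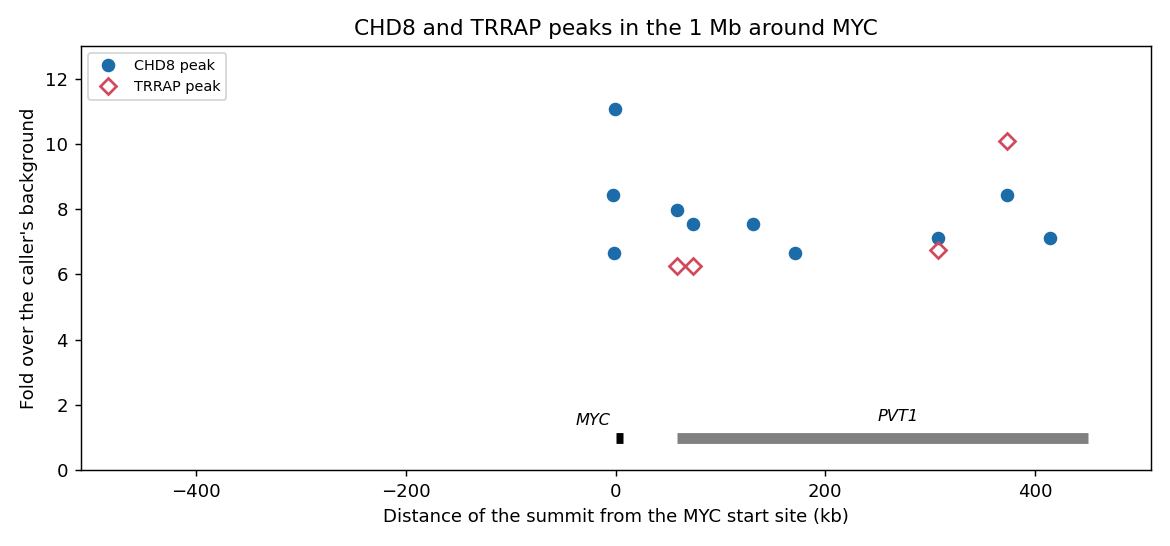
Fold of each CHD8 peak (filled circles) and TRRAP peak (open diamonds) against the distance of its summit from the MYC start in kb, with bars for MYC (black) and PVT1 (grey). The left side of the plot is empty, and the 4 diamonds all lie over PVT1.

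MYCN had 3 CHD8 peaks and 2 TRRAP peaks. The main CHD8 peak, on chromosome 2 at 15939933 to 15940799, was 867 bp wide (fold 13.3, rank 22.4%) with its summit 104 bp upstream. It overlapped both TRRAP peaks, whose summits lay 465 and 180 bp upstream (folds 7.69 and 7.21, widths 242 and 296 bp, ranks 59.4 and 66.8%). CHD8 alone was found in intron 1, 1194 bp past the start (fold 10.6), and in intron 2, 2973 bp past it (fold 7.10), 34 bp before a further annotated start. The first intronic peak, at 15941585 to 15942172, also lies in the span of MYCNOS, the antisense RNA of the locus. The MYCN region, of only 11.5 kb, held 2.62 CHD8 and 1.75 TRRAP peaks per 10 kb, densities that 1.67% and 2.03% of all genes reached. By number of peaks, 11.3% (CHD8) and 15.7% (TRRAP) of genes had as many. The shares for density were similar at MYCL (1.78% and 2.16%) and for CHD8 at MYC (2.02%), and MNT was denser (0.933% and 0.11%).

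MYCL, the family member first found amplified in lung cancer, had 3 CHD8 and 2 TRRAP peaks. Its promoter peaks on chromosome 1 were at 39901594 to 39902082 (CHD8, fold 12.4, rank 27.3%, summit 43 bp upstream) and 39901730 to 39902064 (TRRAP, fold 6.73, rank 75.8%, 82 bp upstream). A narrow CHD8 peak of fold 6.66 lay 604 bp past the start. The other pair was in intron 1, where CHD8 (39898262 to 39898631, fold 11.5, rank 32.6%) and TRRAP (39898224 to 39898478, fold 7.69, rank 59.0%) had summits 3502 and 3581 bp past the start. In both lists the fold of the intronic peak was within 2 steps of the promoter peak.

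MAX, the dimerisation partner that the activators and most antagonists share, had all its peaks within 1 kb of the start, although its region spans 102 kb. Its 3 narrow CHD8 peaks lay on chromosome 14 at 65102754 to 65103033 (fold 9.31, rank 51.3%, summit 329 bp upstream), 65102309 to 65102646 (fold 7.54, 12 bp past the start) and 65101749 to 65102014 (fold 7.10, 588 bp past it). The strongest peak was thus the one farthest upstream, and the one over the start was 4 steps lower. The TRRAP peak, at 65102780 to 65102907, was 128 bp wide (fold 9.12, rank 42.8%). Its summit was 6 bp from that of the upstream CHD8 peak, the closest promoter pair of the 10 genes, and both lie at the E-box shown above.

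Among the antagonists, MXD1 (also known as MAD1), which rises as many cell types stop dividing, had a single broad CHD8 promoter peak on chromosome 2 at 69914174 to 69915204 (1031 bp, fold 12.8, rank 24.1%, summit 567 bp upstream). It overlapped 3 TRRAP peaks, with summits 815, 492 and 11 bp upstream of the start and folds of 6.73, 12.0 and 9.60 (ranks 78.7, 19.3 and 33.5%). Having 3 TRRAP peaks or more in the region was seen at 5.22% of genes. The region also held a strong CHD8 peak 21229 bp upstream (fold 19.0, rank 8.93%), which lies at the start of SNRNP27, a splicing factor gene, and had no TRRAP.

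MXD3, an antagonist found in cycling cells, had 1 promoter peak in each list on chromosome 5. The CHD8 peak was at 177311813 to 177312561 (fold 11.1, rank 34.0%, summit 293 bp upstream) and the TRRAP peak at 177311943 to 177312450 (fold 9.60, rank 33.4%, 390 bp upstream, at the E-box). At the starts of the neighbours RAB24 and PRELID1, the latter 8099 bp downstream, CHD8 was at 177303392 to 177303981 (fold 14.6, rank 18.0%) and TRRAP at 177303624 to 177303843 (fold 8.17, rank 52.6%).

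MXD4 had the fewest peaks of the 10 genes. Its only one was a CHD8 peak of 210 bp on chromosome 4 at 2261353 to 2261562 (fold 9.31, rank 52.2%), with the summit 651 bp past the start in intron 2, and with a window of 500 bp no promoter peak was left. Its promoter had the highest CpG ratio of the 10, 1.04, which is percentile 99.3 of all promoters, and an E-box 238 bp upstream of the start that no peak covered.

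MXI1 (MXD2) had CHD8 without TRRAP at its canonical start and both at starts further downstream. At the canonical start, CHD8 was at chromosome 10, 110207464 to 110207865 (fold 11.5, rank 32.4%, summit 69 bp past the start), with a weaker peak 778 bp past it (fold 7.10), and no TRRAP peak touched the promoter window. In intron 1, CHD8 had 3 further peaks around a second start 2626 bp downstream, with summits 2029, 2606 and 3240 bp past the canonical start and folds of 7.98, 6.66 and 8.43. Only the last, at 110210627 to 110211080 (rank 58.9%), had TRRAP, at 110210716 to 110211001 (fold 13.4, rank 15.0%). Those summits were 3 bp apart, the closest pair of the 10 genes.

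The strongest TRRAP peak of the network was at a more distal group of MXI1 starts, 110226172 to 110227514 (1343 bp, fold 23.0, −log10 q 50.8, rank 3.50%), and covered 25 of the 37 annotated starts of the gene. Its summit was 18896 bp past the canonical start. A narrow TRRAP peak just before it (110225927 to 110226068, fold 9.12) had no CHD8. The CHD8 peaks under the strong one ranked low in their list: 110226164 to 110226398 (fold 6.22, rank 92.2%) and 110226615 to 110226820 (fold 7.54, rank 73.7%), with summits 185 and 238 bp from the TRRAP summit. Thus MXI1 had its lowest CHD8 fold and its highest TRRAP fold at the same place. Its next lowest CHD8 fold, 6.66 at the second start, is not far from that on the grid. The other CHD8 peak here, at 7.54, was above the 6.66 and 7.10 elsewhere in the gene and below the 7.98, 8.43 and 11.5. Counting all annotated starts, MXI1 becomes the seventh gene with a TRRAP promoter peak, but the share of all genes was not recomputed that way.

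The bases around the last 2 TRRAP sites show the sequence under them, each 101 bases of the GRCh38 reference centred on the TRRAP summit, 5′ to 3′, in lower case since neither holds an E-box or E2F word.
MXI1 intron 1, chr10:110210798-110210898, plus strand: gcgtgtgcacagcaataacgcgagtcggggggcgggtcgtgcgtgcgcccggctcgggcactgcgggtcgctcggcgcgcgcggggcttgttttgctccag
MXI1 distal starts, chr10:110226451-110226551, plus strand: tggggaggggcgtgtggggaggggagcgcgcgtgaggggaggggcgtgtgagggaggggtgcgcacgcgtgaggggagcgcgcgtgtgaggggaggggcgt

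Both stretches are rich in G and C (73.3 and 77.2%), as are those shown above for MXD3 (76.2%) and MNT (75.2%). The other stretches shown had 52.5 to 68.3%. The second MXI1 stretch repeats short G-rich words. In its TRRAP peak, 12.5% of the 20-base words occur more than once. This share was 0 in all other peaks of the 10 genes except a CHD8 peak under it (2.14%). Whether reads from such sequence move the fold was not tested. The 32-base words around the summit had a median of 1 copy in the genome.

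MNT, the antagonist that is expressed most widely and in dividing as well as resting cells, had the most peaks: 7 for CHD8 and 10 for TRRAP in a region of 22.0 kb. At least 7 CHD8 peaks were found at 0.789% of all genes and at least 10 TRRAP peaks at 12 genes (0.0599%). MNT also held the strongest CHD8 peak of the network, on chromosome 17 at 2400588 to 2401253 (fold 24.3, −log10 q 60.2, rank 4.83%), with its summit 6 bp past the start. The strongest TRRAP peak of the gene was beside it, at 2400968 to 2402223 (1256 bp, fold 20.1, −log10 q 42.7, rank 4.77%), with its summit 458 bp upstream, 464 bp from that of CHD8.

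Further CHD8 promoter peaks at MNT had summits 957 bp upstream (fold 9.75) and 1334 bp past the start (fold 12.0), the latter at the E-box shown above. Weaker TRRAP promoter peaks had summits 466, 751 and 1343 bp past the start, with folds of 6.26, 7.21 and 7.69. Deeper in the gene, CHD8 and TRRAP met at 3 places. In intron 1, CHD8 summits at 2103 and 4087 bp (folds 9.75 and 12.0) had TRRAP partners at 1920 and 4172 bp (folds 11.0 and 7.69). In intron 4, CHD8 was at 2392644 to 2393443 (fold 15.5, rank 15.1%) and 2393607 to 2394068 (fold 6.66, rank 84.0%). TRRAP had 3 peaks there, at 2392582 to 2392828, 2392899 to 2393601 and 2393683 to 2394047, with folds of 13.9, 14.4 and 13.9 and ranks of 12.0 to 13.8%. These 3 were stronger than every TRRAP peak of the gene except the one at the promoter, and starts of shorter MNT transcripts lie 45 to 296 bp from these summits. A last TRRAP peak in the 3′ UTR in exon 6, at 2385249 to 2385455 (fold 9.12, rank 41.1%), was 1 of 2 in the network without CHD8. The E-box word was absent from the intron 4 peaks.

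MLX, which pairs with some MXD proteins and MNT in place of MAX, had a CHD8 promoter peak on chromosome 17 at 42566806 to 42567610 (805 bp, fold 14.2, rank 19.1%), with the summit 6 bp past the start. It was the strongest CHD8 promoter peak of the 10 genes without TRRAP. Its other CHD8 peak, 4954 bp upstream (fold 10.6), lies at the start of COASY, a coenzyme A synthesis gene, at the edge of the region taken.

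Other genes of the network were read from a list of 21. A CHD8 promoter peak was present at 20 and a TRRAP promoter peak at 11, all 11 with CHD8, beside 55.9% and 34.9% of all protein-coding genes. The 11 of 20 with TRRAP among those with CHD8 is near the 60.7% of all genes with CHD8. Of the partners of MAX and MLX, MGA (CHD8 10.6, TRRAP 8.65) and MLXIP (8.43 and 14.9) had both, and MLXIPL, which encodes the carbohydrate response factor ChREBP, had neither. All 5 corepressors had CHD8, from 5.77 at SIN3B to 24.3 at NCOR1, and 3 had TRRAP. All 8 MYC partners and regulators had CHD8, from 7.98 at HUWE1 to 21.7 at ZBTB17 (MIZ1), and 6 had TRRAP. Of the 5 other E-box factors all had CHD8 and none had a TRRAP promoter peak. Among these, USF1 had a CHD8 fold of 54.8 (rank 0.359%), above every peak of the 10 genes, while TFEB and MITF had 7.54.

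As a check of the labelled cell type, CHD8 promoter peaks lay at 7 of 7 neural stem cell markers (SOX2, SOX1, NES, PAX6, HES1, FABP7 and VIM) and TRRAP peaks at 6, all but FABP7, beside 55.9% and 34.9% of all genes. Of 4 pluripotency markers, LIN28A and DPPA4 had both, and POU5F1 and NANOG had neither. The CHD8 folds were 16.8 at LIN28A and 20.4 at DPPA4, against 10.2 to 17.3 at the neural stem cell markers. The TRRAP folds were 8.65 and 8.17, against 9.60 to 18.2. Of 4 neuronal markers, TUBB3 and SYP had CHD8 and TUBB3 had TRRAP. The CHD8 counts of these last groups, 2 of 4 each, are near the share of all genes. Peaks show occupancy, not expression, which was not measured here.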

How the data were processed

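The authors deposited 1 peak list for each antibody, from 1 library each. Per the submitters' processing notes, HISAT2 and MACS2 2.1.1.20160309 were used on GRCh38. The control, filters and read totals are not given in the sources used here, so depth is unknown. The deposited columns of the authors are a position, a summit, the fold (a linear ratio), −log10 p, −log10 q and a score. For all peaks the score was the −log10 q multiplied by 10 without its decimals. The lists' names carry a false discovery rate of 0.0001 for CHD8 and 0.001 for TRRAP. Positions were counted from 1. No peak ran past a chromosome end of the reference.

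From these, peaks were assigned to genes of GENCODE 44 (20033 protein-coding genes), with a promoter reaching 1 kb to either side of the canonical start, an overlap of at least 1 bp, exact words on both strands and 95% Wilson intervals. The distance to a word is to its first base in the direction of the gene. All 10 genes and all their peaks are named, and in each group of other genes the partners of MAX and MLX and the highest and lowest CHD8 promoter fold. The members and lists were chosen with earlier results of these data known. No p-value was computed. Overlap and copy counting were tested on simulated data. Python 3.11.15, numpy 2.4.6, pandas 2.3.3, scipy 1.17.1, pysam 0.24.0 and matplotlib 3.10.9 were used.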

Additional observations from a re-analysis of the deposited data

How the results depend on the processing

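Of 36 recomputed counts, 29 stayed within 1.5 times the reported value. The 29 include all counts made at a q-value of at most 0.0001. That cut kept all 23393 CHD8 peaks and 14712 of the 14735 TRRAP peaks. The counts at that cut could therefore hardly change, and they are no check of the results. Restriction to peaks above the median rank of their list left 3 genes with both promoter peaks (MXD1, MXD3 and MNT) in place of 6. It left 18 CHD8 and 13 TRRAP peaks over the regions, 7 TRRAP peaks overlapping CHD8, and 1 CHD8 and 1 TRRAP peak in the 1 Mb around MYC. This setting keeps only 50% of each list. With summits required to lie within 200 bp, 13 of the 23 TRRAP peaks met CHD8 in place of 21. With a promoter window of 500 bp, 9 genes had CHD8 (not MXD4), and with all annotated starts 7 had TRRAP (MXI1 added). The shares of all genes were not recomputed under any of these settings, so these gene counts have no background share. No paired analysis was possible because each antibody had 1 library, and for the same reason no library could be left out. Read totals are unknown, so a missing TRRAP peak, as at MYC, says only that none passed the authors' threshold.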

Other observations

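The surroundings of MYCN differed from those of MYC. The 1 Mb centred on MYCN holds 3 coding starts, 1 more than that of MYC, and had 24 CHD8 and 12 TRRAP peaks. Over all genes the medians were 12 and 7 peaks and 13 coding starts. MYC had 10 and 4. The window of MYCL had 23 and 13 with 18 coding starts, and that of MAX had 8 and 5 with 9. The windows were compared after their values were seen, and the difference was not tested.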
